A study of Mus musculus with 24 samples.

Results

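Sox7, Sox17 and Sox18 make up the SoxF group of transcription factors. They were picked by symbol, as 3 of the 29716 genes in the deposited count table, with earlier results of these data known. RNA-seq libraries came from E10.5 C57BL/6J mouse embryos. Each embryo received anti-human IgG (the control, called IgG here) or anti-Dll4, an antibody to a ligand of the Notch receptors, by injection into the heart. Culture followed for 5 h at 37 °C in 5% CO2, in a long-term myeloid medium that held 10 ng/ml IL-3, 10 µM hydrocortisone and 5 µg/ml of the antibody given. CD31+ cells were then sorted into 3 populations, by their surface phenotype: Kit+ CD45-, Kit+ CD45+, and Kit- CD41+ CD45-. There were 4 libraries for each population and antibody and 24 in all. The control embryos thus shared the injection, the culture and its additives with the anti-Dll4 embryos. The number of embryos behind a library is not stated in the labels, so p-values measure the spread between these libraries, which may be technical.

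SoxF proteins are nuclear factors with a high-mobility-group box that binds the minor groove of DNA, and a C-terminal part that activates transcription. In the embryo they are best known from the endothelium, where they act partly in place of one another in vessel growth and arterial identity. Sox17 also marks definitive endoderm and is known for roles in arterial and hemogenic endothelium, Sox18 for the onset of lymphatic vessels and for mutations that cause the ragged mouse phenotype, and Sox7 for the hemangioblast and early hemogenic cells.

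Library totals ran from 8718351 to 11379830 counts. Levels are given as CPM (counts scaled to a common library size) after TMM scaling, a trimmed-mean adjustment of library size, as mean ± SD with n = 4 libraries. All 3 members passed the filter on low counts and were among the 15618 genes tested. Of the sorting markers, Ptprc, which encodes CD45, had 82.3 ± 33.0 CPM in Kit+ CD45+ and 0.811 ± 0.785 CPM in Kit+ CD45- libraries under IgG. Itga2b, which encodes CD41, had 540 ± 162 CPM in Kit- CD41+ CD45- cells under IgG. Levels of Kit and of Pecam1, which encodes CD31, are not given here. Of endothelial genes, Cdh5, the cadherin of endothelial junctions, had 31.0 ± 10.6 CPM in the Kit+ CD45- and 0.572 ± 0.605 CPM in the Kit- CD41+ CD45- IgG libraries. Its Kit+ CD45+ IgG mean was close to that of Kit+ CD45-. Not every endothelial gene separated these populations. Egfl7 had 275.4 CPM in Kit+ CD45- and 263.2 CPM in Kit- CD41+ CD45- IgG libraries, and Esam 141.8 and 129.6 CPM. Of 15 reference endothelial genes described further on, 13 were called higher in Kit+ CD45- cells there and 1, Myct1, lower. The labels call all cells hematopoietic. The 3 anti-Dll4 libraries numbered replicate 1 stood apart from the other 21, with 1 to 5 Xist reads against at least 1455, and at least 523 reads of Y-linked Ddx3y against at most 15. Of the Kit+ CD45- IgG libraries, replicate 1 had the lowest share of globin reads, 16.9%, against 27.4% to 33.7% in the other 3.

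On mm10, Sox7 (ENSMUSG00000063060.5) lies on the plus strand of chromosome 14, from 63943674 to 63950732. Sox17 (ENSMUSG00000025902.13) lies on the minus strand of chromosome 1, from 4490931 to 4497354. Sox18 (ENSMUSG00000046470.5) lies on the minus strand of chromosome 2, from 181669836 to 181671640. Their joined exons in GENCODE M21 span 3299, 4772 and 1620 bases. Sox17 overlaps Gm37587, a noncoding transcript of the opposite strand with 0 to 81 reads per library, and whether counting used strand is not given in the sources used here, so reads of that pair cannot be told apart. The longest stretch of identical bases between transcripts of any pair of members was 29 bases, for Sox17 and Sox18. Neighbouring genes did not share the members' pattern in size: group means ran from 25.3 to 43.7 CPM for Pinx1 beside Sox7, from 247 to 391 CPM for Mrpl15 beside Sox17 and from 4.06 to 13.5 CPM for Tcea2 beside Sox18, and those of Rp1, Prss55 and Gm29797 stayed below 1 CPM. Tcea2 was 1.18 higher on the log2 scale in Kit+ CD45- than in Kit- CD41+ CD45- libraries under IgG (edgeR adjusted p = 0.00304).

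All 3 SoxF genes were abundant in both Kit+ populations and near zero in Kit- CD41+ CD45- cells. Each had the same order of group means, from Kit+ CD45+ IgG at the top through Kit+ CD45+ anti-Dll4, Kit+ CD45- IgG, Kit+ CD45- anti-Dll4 and Kit- CD41+ CD45- IgG to Kit- CD41+ CD45- anti-Dll4. Within each population the IgG and anti-Dll4 means, which are neighbours in that order, did not differ past the threshold for any member. In bulk libraries, fewer cells that make a transcript and less transcript in each cell cannot be told apart.

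**Figure D1:**
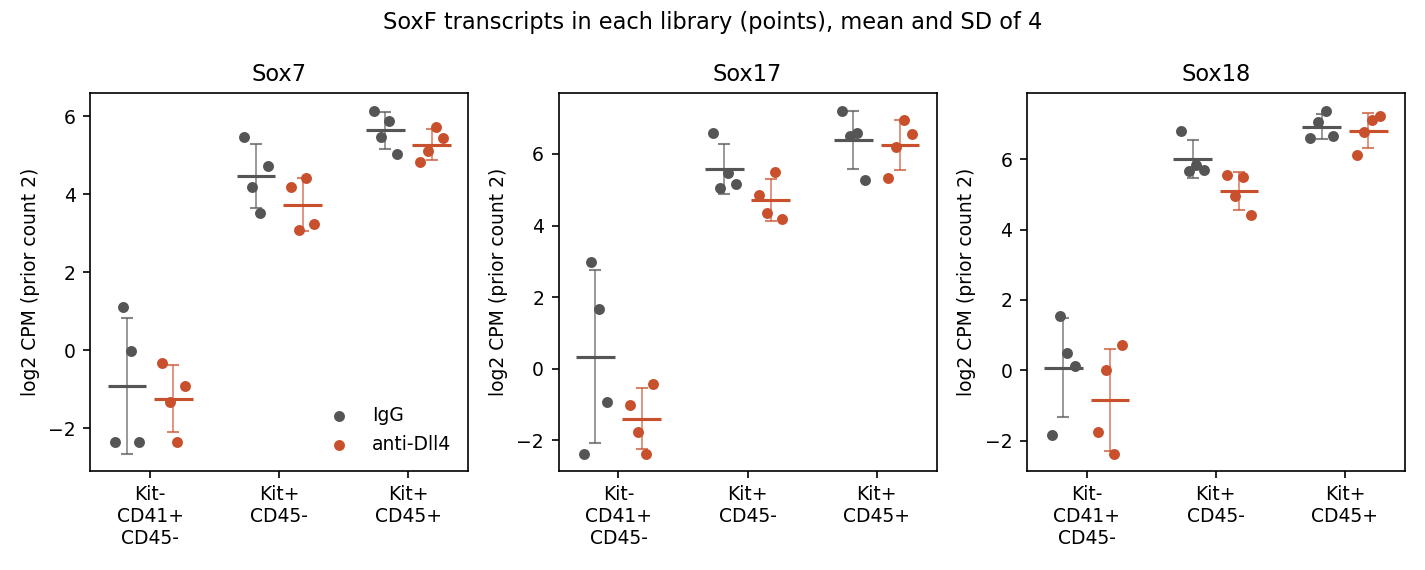
Log2 CPM (prior count 2) of Sox7, Sox17 and Sox18 in each of the 24 libraries, by sorted population, with IgG in grey and anti-Dll4 in orange. Horizontal bars are means and whiskers the SD of 4 libraries; for each gene, every library of the Kit+ populations lies above every Kit- CD41+ CD45- library.

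Sox18, known for its part in the first steps of lymphatic vessel formation, was the strongest of the 3 per length of joined exons. In Kit+ CD45- cells under IgG its 4 libraries held 112, 50.9, 56.7 and 51.7 CPM (67.7 ± 29.4). In Kit+ CD45+ cells under IgG they held 96.5, 134, 167 and 102 CPM (125 ± 32.5). In Kit- CD41+ CD45- cells under IgG only 1, 31, 12 and 8 reads were counted, or 1.23 ± 1.11 CPM. The lowest Kit+ library was far above the highest Kit- library, and 1 Kit+ CD45- library, replicate 1, reached into the Kit+ CD45+ range.

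Sox17, a regulator of arterial and hemogenic endothelium, stood at 95.5, 32.7, 44.5 and 35.9 CPM in Kit+ CD45- cells under IgG (52.1 ± 29.3). In Kit+ CD45+ cells under IgG it stood at 148, 89.8, 95.5 and 38.4 CPM (92.9 ± 44.8), and 1 of these 4 libraries, replicate 1, lay well above the Kit+ CD45- range. In Kit- CD41+ CD45- cells under IgG it had 0, 87, 30 and 3 reads (2.76 ± 3.56 CPM). In CPM, its range over the Kit+ CD45+ IgG libraries was the widest of the 3 members.

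Sox7, known from the earliest blood-forming precursors, stood at 44.2, 17.9, 11.2 and 26.3 CPM in Kit+ CD45- cells under IgG (24.9 ± 14.3). In Kit+ CD45+ cells under IgG its libraries held 70.8, 44.4, 59.0 and 32.9 CPM (51.8 ± 16.6). In Kit- CD41+ CD45- cells under IgG 2 libraries had no Sox7 read, and the other 2 had 22 and 8 (0.687 ± 0.921 CPM). A count of 0 allows up to 3 reads, and such limits cover counting error only because the amplified reads carry no molecular identifiers.

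The few SoxF reads of the Kit- CD41+ CD45- IgG group came mostly from the same libraries. Replicates 2 and 3 under IgG held 140 and 50 SoxF reads, while replicates 1 and 4 held 1 and 11. The mean log2 CPM of 15 endothelial genes chosen as a reference (among them Kdr, Flt1, Tek, Tie1 and Emcn, none a SoxF member) was 3.32 and 2.97 in replicates 2 and 3 against 1.48 and 1.30 in replicates 1 and 4. The part of that difference in the SoxF values was not tested.

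The first comparison of populations asked how Kit+ CD45- cells differ from Kit- CD41+ CD45- cells. Under IgG the test called 3 of 3 members higher in the Kit+ CD45- population, where 27.9% of all genes tested differed and 14.0% were higher. Sox18 was higher by 5.76 on the log2 scale (SE 0.55, adjusted p = 3.95e-08, edgeR quasi-likelihood test with Benjamini-Hochberg adjustment over all genes). Sox7 was higher by 5.12 (SE 0.66, edgeR adjusted p = 2.60e-06). Sox17 was higher by 4.21 (SE 0.69, edgeR adjusted p = 5.99e-05). Every Kit+ CD45- library exceeded every Kit- CD41+ CD45- library for each member, and how many of all genes did so was not counted. Leaving out replicate 2 of the Kit- CD41+ CD45- IgG group, which held most of its SoxF reads, raised the log2 differences to 6.58, 6.51 and 5.56 for Sox18, Sox7 and Sox17.

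Under anti-Dll4 the same comparison called 3 of 3 members higher, beside 29.9% of all genes tested that differed and 14.7% that were higher. Sox17 had the widest gap, 6.84 (SE 0.95, edgeR adjusted p = 6.74e-06), with 9 reads in all over the 4 Kit- CD41+ CD45- libraries. Sox18 differed by 5.94 (SE 0.60, edgeR adjusted p = 6.71e-08) and Sox7 by 5.60 (SE 0.75, edgeR adjusted p = 4.28e-06). With so few reads on the lower side the sizes move with single libraries. Without Kit- CD41+ CD45- anti-Dll4 replicate 4, Sox17 differed by 7.57 and Sox18 by 6.82, and without replicate 1 of that group Sox7 differed by 6.26. Without all 3 anti-Dll4 replicate 1 libraries, which stand apart by their Xist and Ddx3y reads, the differences were 6.96, 5.42 and 6.12 for Sox17, Sox18 and Sox7 (edgeR adjusted p at most 0.000255).

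Kit+ CD45+ cells, which carry the pan-leukocyte marker CD45, also had far more SoxF transcript than Kit- CD41+ CD45- cells. Under IgG 3 of 3 members were higher, beside 37.2% of all genes tested that differed and 19.7% that were higher, with log2 differences of 6.64 for Sox18 (SE 0.56, edgeR adjusted p = 2.32e-09), 6.17 for Sox7 (SE 0.67, edgeR adjusted p = 1.20e-07) and 5.04 for Sox17 (SE 0.71, edgeR adjusted p = 4.95e-06). Under anti-Dll4 3 of 3 were higher, beside 37.6% of genes that differed and 20.4% that were higher, with 7.64, 7.06 and 8.39 for the same genes (edgeR adjusted p at most 2.20e-07). Without Kit- CD41+ CD45- IgG replicate 2 the IgG differences became 7.46, 7.56 and 6.40. Without replicate 4 of the anti-Dll4 group, Sox18 and Sox17 differed by 8.53 and 9.13, and without its replicate 1 Sox7 differed by 7.72. Without the 3 anti-Dll4 replicate 1 libraries Sox18, Sox7 and Sox17 differed by 7.44, 7.83 and 8.74.

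Markers of other cells moved in the same comparisons. Between Kit+ CD45- and Kit- CD41+ CD45- cells under IgG, 13 of 15 reference endothelial genes were higher and 1, Myct1, lower (median log2 difference 4.09, against 0.06 over all genes), 13 of 14 germ cell genes were higher (median 4.95), 14 of 15 red cell genes were higher (median 2.17) and 17 of 17 megakaryocyte and platelet genes were lower (median -3.22). Summed levels of the reference endothelial genes ran from 1203 to 2587 CPM in Kit+ CD45- and from 219.7 to 326 CPM in Kit- CD41+ CD45- libraries. Of 15 endoderm genes, listed because Sox17 also marks endoderm, 6 could be tested and 2, Trh and Apoa1, were higher. Under IgG their summed level ran from 21.3 to 93.0 CPM for Kit+ CD45-, from 16.0 to 44.2 CPM for Kit- CD41+ CD45- and from 3.41 to 16.9 CPM for Kit+ CD45+ libraries, with Cer1 at 0 in every library of both Kit+ groups. Foxa1, Foxa2, Ttr, Hnf4a and Spink1 were also at 0 in every Kit+ CD45- anti-Dll4 library. Under anti-Dll4 the endoderm sums ran from 17.7 to 70.2 CPM for Kit+ CD45-, from 2.00 to 68.1 CPM for Kit- CD41+ CD45- and from 8.28 to 12.1 CPM for Kit+ CD45+ libraries. In Kit+ CD45+ against Kit- CD41+ CD45- cells under IgG, 13 of 15 reference endothelial genes and 14 of 15 macrophage genes were higher, while 15 of 15 red cell genes and 16 of 17 megakaryocyte and platelet genes were lower. The part of these other cells in the SoxF values was not tested.

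Whether SoxF differed beyond the mean of the reference genes was asked within each library, as log2 CPM of a member minus the mean log2 CPM of the 15 reference genes. Both Kit+ populations lay above Kit- CD41+ CD45- cells for each member. Sox18 lay 2.36 higher in Kit+ CD45- and 2.71 higher in Kit+ CD45+ cells (both adjusted exact permutation p = 0.00245, 8 libraries a population, two-sided, permuted within each antibody and adjusted over 18 tests). Sox17 lay 2.09 and 2.30 higher (adjusted exact permutation p = 0.00490 and 0.00441). Sox7 lay 1.60 and 1.98 higher (adjusted exact permutation p = 0.00441 and 0.00245). The raw p of 0.000408, reached by Sox18 in both and by Sox7 in Kit+ CD45+ cells, is the smallest the permutations can give. In Kit- CD41+ CD45- libraries without a read the value is set by the prior count of 2, and with a prior count of 0.5 the Kit+ CD45+ differences were 2.96, 2.66 and 2.52 for Sox18, Sox17 and Sox7. The reference mean also holds Myct1, higher in Kit- CD41+ CD45- cells, and Flt1 and Calcrl, at 36.1 and 10.3 CPM there under IgG. Against the reference median of 4.09 for Kit+ CD45- cells under IgG, Sox17 (4.21) lay close and Sox7 (5.12) and Sox18 (5.76) lay above. These values therefore do not rank SoxF against single endothelial genes.

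**Figure D2:**
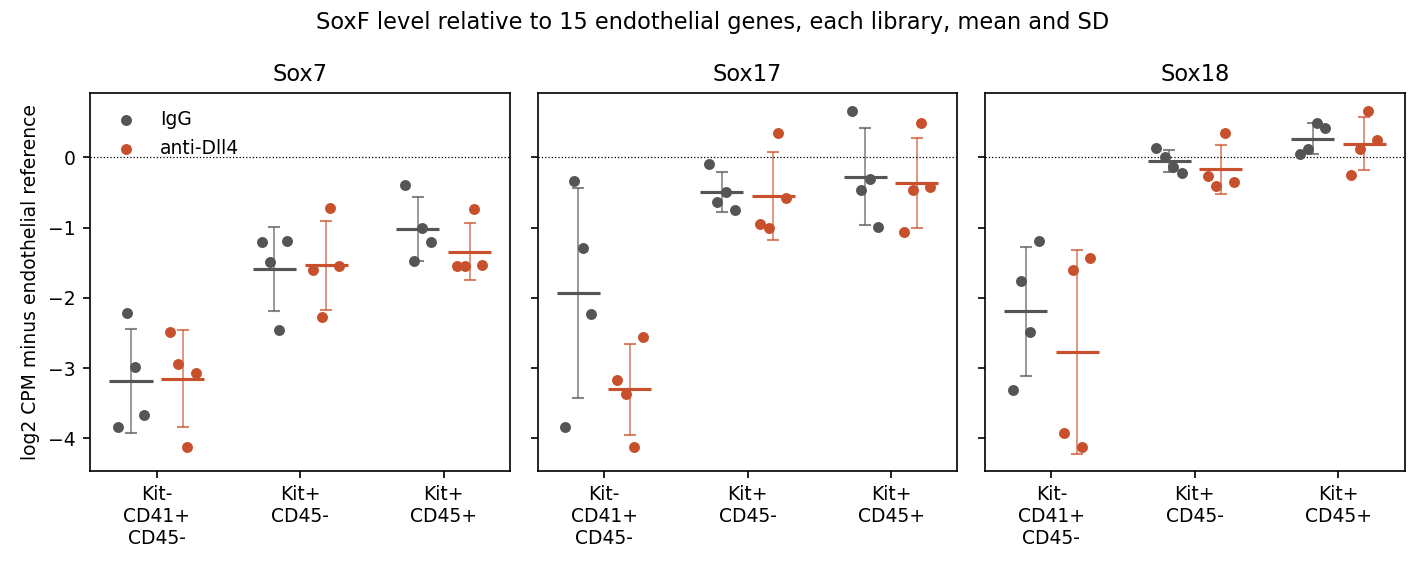
Log2 CPM (prior count 2) of each SoxF gene minus the mean log2 CPM of 15 reference endothelial genes in each library, by sorted population, with IgG in grey and anti-Dll4 in orange; horizontal bars are means and whiskers the SD of 4 libraries. Means in both Kit+ populations lie above those in Kit- CD41+ CD45- cells, and the IgG and anti-Dll4 points overlap in both Kit+ populations.

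The 2 Kit+ populations differ by CD45, a marker gained along the path to blood cells, and SoxF transcripts were not lower in the CD45+ cells. Under IgG 0 of 3 members passed the threshold, beside 19.2% of all genes tested. Sox7 was 1.05 higher in Kit+ CD45+ cells on the log2 scale (95% interval 0.024 to 2.08, edgeR adjusted p = 0.149). Sox18 was 0.88 higher (95% interval 0.041 to 1.72, edgeR adjusted p = 0.138), and Sox17 0.83 higher (95% interval -0.36 to 2.02, edgeR adjusted p = 0.350). The libraries of both populations overlapped for each gene. Within a set, the libraries of 1 antibody and number, the Kit+ CD45+ library was higher for Sox7 and Sox17 in 4 of 4 sets and for Sox18 in 3 of 4. The same count was not made over all genes. The labels do not say that libraries of 1 number share embryos, and with each set as a block no member passed (edgeR adjusted p = 0.160 for Sox7, 0.405 for Sox17 and 0.185 for Sox18). Without Kit+ CD45- IgG replicate 1, the library with the lowest globin share, Sox7 (1.49, edgeR adjusted p = 0.0476) and Sox18 (1.23, edgeR adjusted p = 0.0404) passed the threshold, and Sox17 moved to 1.30 without passing it.

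Under anti-Dll4, 2 of 3 members were higher in Kit+ CD45+ than in Kit+ CD45- cells, beside 29.2% of all genes tested that differed and 16.6% that were higher. Sox18 stood at 69.4, 109.8, 140.0 and 149.9 CPM in Kit+ CD45+ cells (117 ± 36.2) and at 46.5, 30.6, 44.9 and 21.2 CPM in Kit+ CD45- cells (35.8 ± 12.1), without overlap. The difference was 1.70 on the log2 scale (SE 0.42, edgeR adjusted p = 0.00349). Sox7 stood at 28.1, 34.2, 52.7 and 43.6 CPM (39.7 ± 10.8) against 18.2, 8.31, 21.4 and 9.18 CPM (14.3 ± 6.51), also without overlap. How many of all genes separated in this way was not counted.

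The Sox7 difference was 1.46 (SE 0.51, edgeR adjusted p = 0.0334). That call rested on several libraries: it was lost without replicate 2 or 4 of the Kit+ CD45- anti-Dll4 group and without replicate 3 or 4 of the Kit+ CD45+ anti-Dll4 group, where edgeR adjusted p was 0.103, 0.101, 0.0875 and 0.0696. It was also lost without a filter on low counts (edgeR adjusted p = 0.0844) and with DESeq2 (adjusted p = 0.106). Sox17 stood at 39.7, 73.0, 124 and 94.6 CPM in Kit+ CD45+ cells (82.9 ± 35.7) and at 28.7, 20.2, 44.9 and 18.1 CPM in Kit+ CD45- cells (28.0 ± 12.2), where 1 Kit+ CD45- library, replicate 3, lay above the lowest Kit+ CD45+ library. Its difference of 1.56 (SE 0.59, edgeR adjusted p = 0.0505) fell just short of the threshold. It passed with the replicate number as a block (1.66, edgeR adjusted p = 0.0473) and with only these 2 groups fitted (1.497, edgeR adjusted p = 0.0104), but not with the set of 1 antibody and number as a block (1.53, edgeR adjusted p = 0.0594). The Kit+ CD45+ library was the higher one in 4 of 4 same-numbered sets for each member, and how many of all genes did so was not counted. The Sox17 difference also passed without Kit+ CD45+ anti-Dll4 replicate 1 (1.79, edgeR adjusted p = 0.0353), a library that stands apart by its Y-linked reads, and without Kit+ CD45- anti-Dll4 replicate 3 (1.89, edgeR adjusted p = 0.0403). Without all 3 anti-Dll4 replicate 1 libraries Sox18 differed by 2.02 (edgeR adjusted p = 0.00335), Sox7 by 1.71 (edgeR adjusted p = 0.0403) and Sox17 by 1.78 (edgeR adjusted p = 0.0760). The IgG and the anti-Dll4 comparison use different libraries. Whether the members' differences between them exceed error was not tested for the Kit+ populations alone. The test of the antibody effect between populations given further on joins all 3 populations.

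Between the same populations, endothelial reference genes also differed. Under anti-Dll4 11 of 15 had a higher level in the CD45+ population and 0 a lower one (median 1.30, all genes 0.10, with 16.6% of all genes tested higher). Under IgG 1 of 15, Calcrl, had a higher level and 0 a lower one (median 0.60, all genes 0.04, with 10.0% higher). Among them Plvap, a protein of endothelial fenestrae, held 531 ± 152 CPM in Kit+ CD45+ and 161 ± 60.5 CPM in Kit+ CD45- anti-Dll4 libraries (log2 difference 1.72, edgeR adjusted p = 0.000361). Markers of other cells differed as well: under IgG the Kit+ CD45+ population had more of 15 of 15 macrophage genes and less of 15 of 15 red cell genes, 10 of 14 germ cell genes and 15 of 17 megakaryocyte and platelet genes (median of the last -3.62, with 1, P2ry12, higher). Under anti-Dll4 it had more of 14 of 15 macrophage genes and less of 15 of 15 red cell genes and 10 of 14 germ cell genes, and of the megakaryocyte and platelet genes 6 were lower and 2, P2ry12 and Vwf, higher (median -0.76). Summed macrophage levels in Kit+ CD45+ libraries ran from 703 to 5729 CPM under IgG and from 2360 to 4782 CPM under anti-Dll4. In Kit+ CD45- libraries they ran from 573 to 846 CPM and from 587 to 1044 CPM, and the part of these cells in the SoxF values was not tested. Measured against the reference genes, Sox18 lay 0.34 higher in Kit+ CD45+ cells (exact permutation p = 0.0302, adjusted p = 0.0777, n = 8). Sox7 lay 0.38 higher (adjusted exact permutation p = 0.343) and Sox17 0.20 higher (adjusted exact permutation p = 0.789), so none passed after adjustment. The Sox18 value passed without Kit+ CD45+ anti-Dll4 replicate 1 (0.42, adjusted exact permutation p = 0.0346) and without Kit+ CD45- anti-Dll4 replicate 3 (0.43, adjusted exact permutation p = 0.0157).

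The make-up of the SoxF group hardly varied between the Kit+ groups. It is given per length of the joined exons, and which transcripts of each gene were made was not measured. Per kilobase of exon, the IgG means of Sox18 were 41.8 ± 18.2 CPM in the Kit+ CD45- and 77.0 ± 20.0 CPM in the Kit+ CD45+ population. On the same scale those of Sox17 were 10.9 ± 6.14 and 19.5 ± 9.38 and those of Sox7 7.55 ± 4.32 and 15.7 ± 5.02. Sox18 thus took 70.0 ± 3.10% of the per-length SoxF signal in the Kit+ CD45- IgG group and 68.8 ± 4.59% in its anti-Dll4 counterpart, and 69.0 ± 10.8% and 71.3 ± 2.82% in the corresponding Kit+ CD45+ groups. Sox17 took 16.6% to 18.1% and Sox7 12.1% to 14.0% in these 4 group means.

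One library differed in make-up. In Kit+ CD45+ IgG replicate 1, Sox18 took 53.2%, Sox17 27.7% and Sox7 19.2% of the signal, while Sox18 took 63.6% to 77.8% in the other 15 Kit+ libraries. Without division by length, replicate 1 of the Kit+ CD45+ IgG group held more Sox17 than Sox18 reads, 2223 against 1450. That library had the highest Sox17 and Sox7 levels of all 24 and the lowest Sox18 level of its group. It also had the lowest levels of the macrophage genes Adgre1 and C1qa in its group, 0.200 and 7.45 CPM, against group medians of 38.7 and 145 CPM. What this shares with the SoxF make-up was not tested. Log2 ratios between members did not differ past the threshold in any of 18 comparisons of populations or antibodies (adjusted exact permutation p = 0.914 in each, smallest raw p 0.0857, for Sox17 over Sox7 between antibodies in Kit- CD41+ CD45- cells, where 4 against 4 libraries cannot go below 0.0286). In Kit- CD41+ CD45- cells shares rest on 0 to 140 reads a library.

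**Figure D3:**
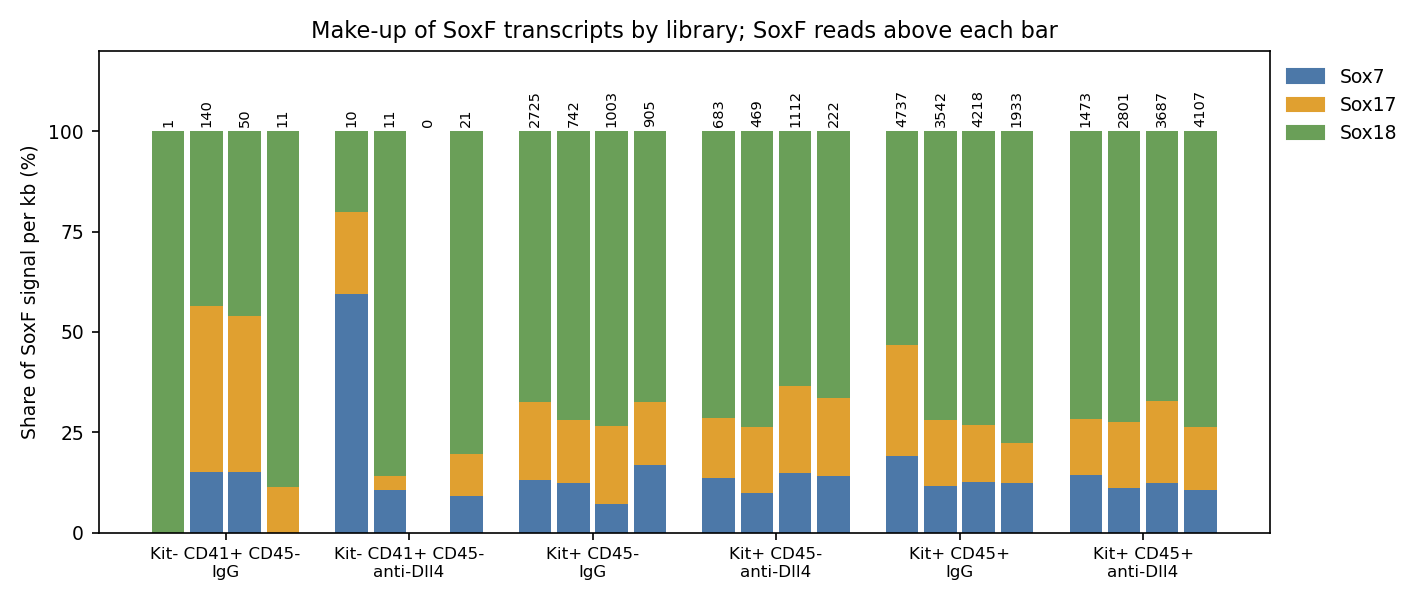
Share of the SoxF signal per kilobase of exon (percent, vertical axis) taken by Sox7, Sox17 and Sox18 in each library, in replicate order within each group, with the number of SoxF reads above each bar. Sox18 takes most of this per-length signal in all 16 Kit+ libraries, and the bars of Kit- CD41+ CD45- cells rest on 0 to 140 reads.

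The study's main question was what anti-Dll4 changes in each population. No SoxF gene passed the threshold in any population. The share of all genes called was 0% for Kit+ CD45-, 0% for Kit- CD41+ CD45- and 0.00640% (1 gene, F2rl2) for Kit+ CD45+. At an unadjusted edgeR p under 0.05 there were 1733, 435 and 453 genes, with Sox18 among the first and Sox17 among the second. DESeq2 called 82, 2 and 14 genes, with no SoxF gene among these calls. Dll4 mRNA does not test the block, since the antibody binds the protein, and its Kit+ CD45- means were 12.1 CPM under IgG and 6.36 CPM with the antibody.

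In Kit+ CD45- cells all 3 members had lower means under anti-Dll4. Sox18 held 50.9 to 112 CPM under IgG and 21.2 to 46.5 under anti-Dll4, and the groups did not overlap. How many of all genes separated without overlap was not counted, here or between populations. The Sox18 log2 difference was -0.91 (95% interval -1.77 to -0.063, unadjusted p = 0.0364 and adjusted p = 0.424 by edgeR). Of all genes tested 11.1% had an unadjusted edgeR p under 0.05 in this comparison. Sox17 differed by -0.89 (95% interval -2.10 to 0.32, edgeR adjusted p = 0.560) and Sox7 by -0.79 (95% interval -1.84 to 0.25, edgeR adjusted p = 0.546), with overlapping libraries. Both intervals include 0. The differences shrank to -0.56, -0.42 and -0.36 for Sox18, Sox17 and Sox7 without IgG replicate 1, which had the highest level of each in its group. They were -1.05, -0.89 and -0.91 without the 3 anti-Dll4 replicate 1 libraries.

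Other marker lists had shifted means in the same comparison, with no gene of them called. In Kit+ CD45- cells 15 of 15 reference endothelial genes had lower means under anti-Dll4 (median -0.77, all genes -0.03, 0 called), and 15 of 15 red cell genes had higher means (median 0.71, 0 called). Of 17 megakaryocyte and platelet genes 16 had lower means (median -1.21, 0 called), and their summed level ran from 926 to 4165 CPM under IgG and from 734 to 1866 CPM under anti-Dll4. The part of these lists in the SoxF values was not tested. The globin share was 16.9% to 33.7% under IgG and 22.1% to 49.3% under anti-Dll4. With the globin genes removed before scaling the members differed by -0.88 (Sox18), -0.85 (Sox17) and -0.76 (Sox7), and with the globin share as a covariate by -0.70, -0.65 and -0.58. Relative to the reference genes, the antibody differences in Kit+ CD45- cells were -0.12 for Sox18, -0.06 for Sox17 and 0.05 for Sox7 (adjusted exact permutation p = 0.791, 0.943 and 0.943, n = 4).

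For Sox17 in Kit- CD41+ CD45- cells the 0, 87, 30 and 3 IgG reads stood against 3, 1, 0 and 5 reads under anti-Dll4. The log2 difference was -3.51 (95% interval -5.77 to -1.25, unadjusted p = 0.00379 and adjusted p = 1 by edgeR), although the libraries overlapped. Without IgG replicate 2, with 87 of the group's 120 reads, it was -2.16. Sox18 differed by -1.09 (95% interval -2.66 to 0.48, edgeR adjusted p = 1), or -0.27 without that library and -1.98 without anti-Dll4 replicate 4. Sox7 differed by -1.27 (95% interval -3.24 to 0.70, edgeR adjusted p = 1), and turned to 0.12 without IgG replicate 2. Group totals behind these values were 120 and 9 reads for Sox17, 52 and 22 for Sox18 and 30 and 11 for Sox7 under IgG and anti-Dll4. In this population 15 of 15 reference endothelial genes also had lower anti-Dll4 means (median -0.47, 0 called), 15 of 15 red cell genes had higher means (median 0.88, 0 called) and 13 of 17 megakaryocyte and platelet genes had lower means (median -0.09, 0 called).

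In Kit+ CD45+ cells the antibody groups overlapped for every member. Sox7 differed by -0.38 (95% interval -1.40 to 0.63), Sox17 by -0.16 (95% interval -1.34 to 1.01) and Sox18 by -0.09 (95% interval -0.92 to 0.74), all with edgeR adjusted p = 1. Sox17 turned to 0.15 without IgG replicate 1 and to 0.07 without anti-Dll4 replicate 1, and Sox18 turned to 0.09 without anti-Dll4 replicate 1 and 0.08 without IgG replicate 3. Here 9 of 15 reference endothelial genes had lower means (median -0.04, 0 called), 10 of 15 red cell genes had higher means (median 0.94, 0 called) and 15 of 17 megakaryocyte and platelet genes had higher means (median 1.08, with F2rl2 called). Averaged over the 3 populations, Sox17 differed by -1.52 (unadjusted p = 0.00311, adjusted p = 0.503), Sox7 by -0.82 (adjusted p = 0.590) and Sox18 by -0.70 (adjusted p = 0.584, all edgeR), beside 0 genes called by edgeR, 1311 at an unadjusted p under 0.05 and 31 called by DESeq2. Whether the antibody effect differs between populations gave unadjusted p = 0.0467 for Sox17, 0.289 for Sox18 and 0.672 for Sox7 and adjusted p = 1 for each by edgeR, beside 0.0256% of genes called (4 genes: Gp6, 4931440F15Rik, F2rl2 and Cacna2d3). This test joins all 3 populations, and no member passed it. It does not single out the difference noted above between the IgG and anti-Dll4 comparisons of the Kit+ populations.

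**Figure D4:**
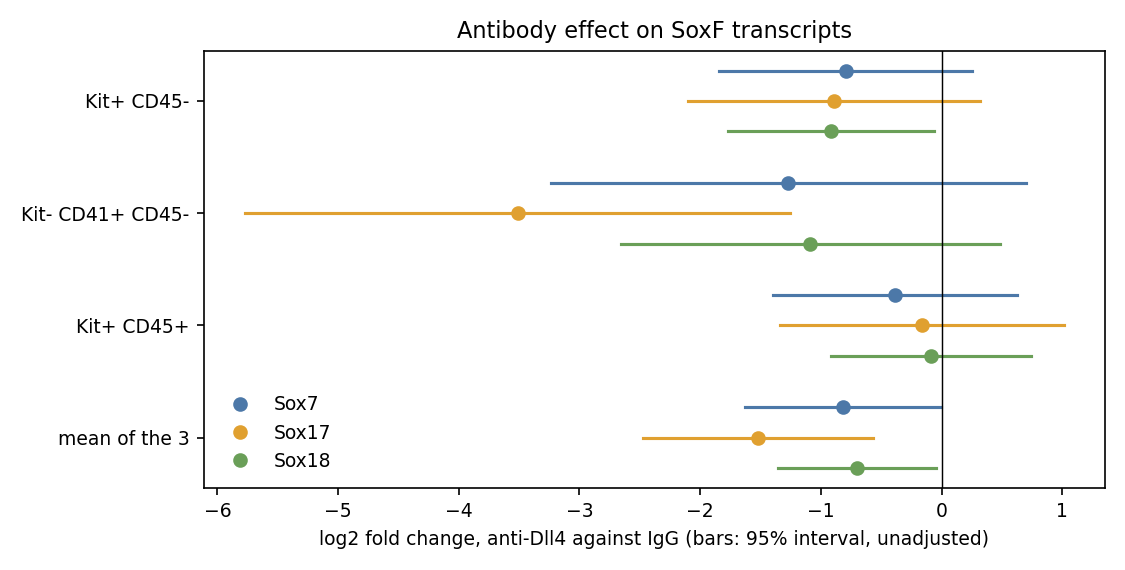
Log2 fold change of Sox7, Sox17 and Sox18 under anti-Dll4 against IgG in each population and averaged over the 3, from the edgeR fit to all 24 libraries; bars are unadjusted 95% intervals and the vertical line marks no change. All points lie at or below 0, the Sox17 interval in Kit- CD41+ CD45- cells runs from -5.77 to -1.25, and no value passed the threshold after adjustment.

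Genes that are reported to be bound by SoxF factors or to work with them were listed beside the members. Of 16, 9 were higher and 3 lower in Kit+ CD45- than in Kit- CD41+ CD45- cells under IgG (median 1.29, all genes 0.06). Of all genes tested 14.0% were higher and 13.8% lower in that comparison, which is also made for the lists that follow. Cdh5 (log2 difference 5.73, edgeR adjusted p = 3.06e-08), the junction protein Cldn5 (6.14, edgeR adjusted p = 7.72e-07) and the receptor Notch1 (2.82, edgeR adjusted p = 2.60e-06) were higher. The lower ones were Runx1, Mef2c and Gata2. Runx1, the factor needed for blood to emerge from endothelium, held 38.2 ± 15.2 against 148 ± 16.6 CPM (-1.96, edgeR adjusted p = 1.60e-06). Runx1 therefore had its highest IgG mean where SoxF reads were fewest, and it was also higher in Kit+ CD45+ than in Kit+ CD45- cells (1.20, edgeR adjusted p = 0.000808), where SoxF means were higher.

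Between the Kit+ populations under IgG, 3 of the 16 had more transcript in the CD45+ population and 0 had less (median 0.38), beside 10.0% and 9.18% of all genes tested. Besides Runx1 they were Mef2c, which partners Sox18 in endothelium (1.03, edgeR adjusted p = 0.000141), and Rbpj, the DNA-binding partner of Notch (0.82, edgeR adjusted p = 0.0153). Under anti-Dll4 in Kit+ CD45- cells 15 of the 16 had lower means (median -0.64) and 0 were called. Efnb2, an arterial ligand, had the smallest p, at 17.0 ± 8.34 CPM under IgG and 7.28 ± 3.49 under anti-Dll4 (-1.22, edgeR adjusted p = 0.222).

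Notch genes were listed because Dll4 signals through Notch receptors and because Sox17 and Notch are linked in arteries. Of 16 Notch receptors, ligands and targets, 9 were higher and 0 lower in Kit+ CD45- than in Kit- CD41+ CD45- cells under IgG (median 1.94). Dll4 itself was at 12.1 ± 7.24 against 0.202 ± 0.341 CPM (5.76, edgeR adjusted p = 2.05e-05). Between the Kit+ populations under IgG 0 were higher and 1, Notch3, was lower in Kit+ CD45+ cells (median -0.17). Of all genes tested 10.0% were higher and 9.18% lower in that comparison. In Kit+ CD45- cells 14 of 16 had lower means under anti-Dll4 (median -0.61, 0 called), with the target Hes1 at 63.8 ± 21.0 CPM under IgG and 29.2 ± 2.65 under anti-Dll4 (-1.13, edgeR adjusted p = 0.195).

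Other transcription factors of the endothelium split between the populations. Of 25, 13 were higher and 7 lower in Kit+ CD45- than in Kit- CD41+ CD45- cells under IgG (median 1.63). The ETS factors Elk3 (3.97, edgeR adjusted p = 1.26e-07), Ets1 (3.07, edgeR adjusted p = 9.97e-07) and Erg (4.25, edgeR adjusted p = 3.04e-06) were among the higher ones. Between the Kit+ populations under IgG 3 were higher in the CD45+ population, Mef2c, Hhex (1.00, edgeR adjusted p = 0.00222) and Erg (1.26, edgeR adjusted p = 0.0405), and 1 was lower, Tal1, a factor shared by blood and endothelial precursors (-1.86, edgeR adjusted p = 9.71e-06). Over all genes tested 10.0% were higher and 9.18% lower there, so these counts lie near the share of all genes. In the antibody comparison of Kit+ CD45- cells 23 of 25 had lower anti-Dll4 means (median -0.64, 0 called).

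Venous and lymphatic endothelial genes were listed because Sox18 is known for its part upstream of Prox1 at the start of lymphatic vessels. Of 12, 8 were higher and 1, Vwf, was lower in the Kit+ CD45- than in the Kit- CD41+ CD45- IgG libraries (median 1.92). Flt4, the receptor of lymphatic growth factors, had 12.8 ± 3.15 CPM against 0.0214 ± 0.0428 CPM there (edgeR adjusted p = 1.48e-09), the lower mean coming from a single library with reads. Aplnr, a receptor of venous endothelium, had 45.9 ± 25.7 CPM against 0.641 ± 0.762 CPM (6.13, edgeR adjusted p = 7.06e-07). Prox1 itself stayed low, with group means from 1.87 to 4.96 CPM and no call in this comparison (1.39, edgeR adjusted p = 0.165) or between the Kit+ populations (-0.13 under IgG, edgeR adjusted p = 0.929), where Sox18 means were highest. Between the Kit+ populations under IgG, Dab2 and Lyve1, which macrophages also make, were higher in the CD45+ population and Pdpn was lower. Of all genes tested 10.0% were higher and 9.18% lower there.

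Within the wider Sox family, 10 of the 16 other members in the count table reached 1 CPM in some group. Sox4 and Sox11, both of the SoxC group and broadly expressed in progenitors, were the most abundant, with highest group means of 127 CPM (Kit+ CD45+) and 88.0 CPM (Kit+ CD45-), both under IgG. Sox9 peaked at 17.1 CPM, Sox2 at 8.07, Sox15 at 7.57, Sox12 at 6.00, Sox6 at 3.72, Sox13 at 3.18, Sox5 at 2.42 and Sox10 at 1.49, and Sox1, Sox3, Sox8, Sox14, Sox21 and Sox30 stayed below 1 CPM. Per kilobase of exon, the highest group mean of any other family member was 26.5 CPM for Sox4, against 77.0 CPM for Sox18. In Kit+ CD45- against Kit- CD41+ CD45- cells under IgG, 3 of the 10 tested were higher and 0 lower: Sox4 (1.85, edgeR adjusted p = 0.00123), Sox15 (2.23, edgeR adjusted p = 0.00915) and Sox13 (2.37, edgeR adjusted p = 0.0196). Of all genes tested 14.0% were higher and 13.8% lower there.

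Sox4 had the same order of populations as the SoxF genes, though it stayed at 22.1 ± 6.41 CPM in Kit- CD41+ CD45- cells under IgG. Sox2 and Sox15 did not. Sox2, a pluripotency and neural factor, had 4.69 ± 2.66 CPM in the Kit+ CD45- group and no read in any Kit+ CD45+ library under IgG (edgeR adjusted p = 0.000781). Sox15 had 7.57 ± 6.13 CPM in the Kit+ CD45- and 1.39 ± 0.305 CPM in the Kit+ CD45+ group (-2.43, edgeR adjusted p = 0.00769). Sox11 was lower in the Kit+ CD45+ group too (-1.32, edgeR adjusted p = 0.00353). Germ cell genes had the same pattern, with Dppa3 at 111 ± 67.2 CPM for Kit+ CD45- and 0.0568 ± 0.114 CPM for Kit+ CD45+ and Pou5f1 at 11.5 ± 7.13 CPM and no read, and their part in the Sox2 and Sox15 values was not tested.

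**Figure D5:**
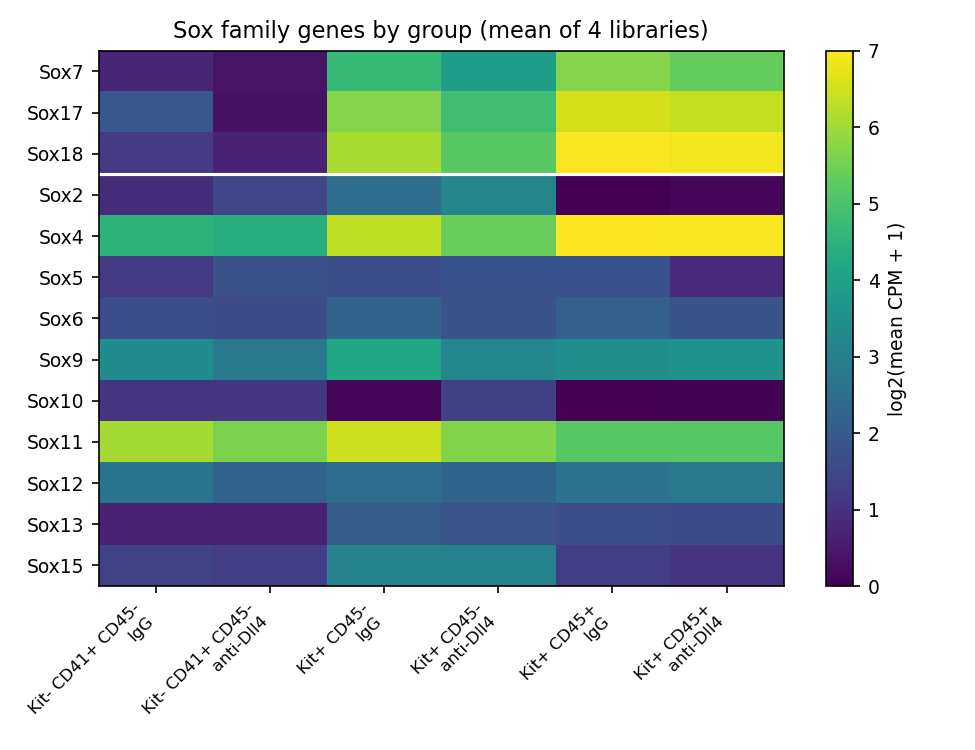
Group means of Sox family genes with at least 1 CPM in some group, as log2(mean CPM + 1), with genes as rows and the 6 groups of 4 libraries as columns; the white line parts the 3 SoxF genes from the other 10. The SoxF rows and Sox4 are brightest in Kit+ CD45+ cells, and Sox2 and Sox15 are brightest in Kit+ CD45- cells.

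The genes most like each member were ranked by Pearson's r of log2 CPM over the 24 libraries, among 9338 genes with a mean of at least 5 CPM. This is a description, since libraries of a population share their cell make-up and r mostly reflects the 3 populations. Nearest to Sox7 were Clec14a (r = 0.982), Sox17 (0.981), Elk3 (0.981), Cdh5 (0.979) and Acvrl1 (0.978). Nearest to Sox17 were Sox7 (0.981), Yes1 (0.976), Adgrl4 (0.976), Cyyr1 (0.975) and Adgrf5 (0.975), with Sox18 at rank 6 (0.974). Nearest to Sox18 were Icam2 (0.988), Elk3 (0.983), Cyyr1 (0.982), Adgrl4 (0.981) and Ecscr (0.980), while Sox17 and Sox7 were at ranks 15 and 16. The r of Sox7 with Sox17 (0.981) was slightly above those of Sox7 and Sox17 with Sox18 (0.973 and 0.974). Whether that gap exceeds error was not tested. Clec14a, Cdh5, Acvrl1, Icam2 and Ecscr encode surface proteins of endothelial cells, and Elk3 is an ETS factor.

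SoxF proteins, like other Sox proteins, recognize a short core motif, searched here as AACAAT on either strand (ATTGTT on the other) in the 250 bases before gene starts in RefSeq on GRCm38.p6. It was found in 9.42% of 32851 promoters. Of 20 promoters matched for 13 of the listed targets and partners, 0 held it, and of 11 promoters matched for 10 reference endothelial genes 3 did, those of Calcrl, Emcn and Tek. The stretches around these matches, at chr2:84425455-84425514 (minus strand), chr3:137341001-137341060 (plus strand) and chr4:94739199-94739258 (plus strand), are printed, 5′ to 3′ along the gene. All 3 genes were higher in Kit+ CD45- than in Kit- CD41+ CD45- libraries under IgG (Emcn by 5.42, Calcrl by 2.40 and Tek by 2.28 on the log2 scale). In that comparison 13 of the 15 reference genes were called higher, so the direction does not set these 3 apart. Capitals mark the motif.
Calcrl: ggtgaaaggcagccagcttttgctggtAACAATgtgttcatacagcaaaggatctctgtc
Emcn: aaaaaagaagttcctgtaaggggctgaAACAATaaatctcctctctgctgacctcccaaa
Tek: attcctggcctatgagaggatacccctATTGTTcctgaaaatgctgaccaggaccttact
A match describes letters in this window and no binding was measured.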

How the data were processed

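The count table was deposited as raw reads per gene, with no normalization by the authors. Its log2 companion table, normalized by the authors, was reproduced from the counts as log2 of 1 plus count over size factor (size factors 0.454 to 1.56, largest difference 5.2e-14) and gave names, identifiers and positions. It holds 1 library column of no listed sample, which was not used. The submitters' processing notes name CASAVA 1.4, STAR, HTSeq, FastQC, DESeq2 and mm10, without saying which step each served. Annotation release and strand setting: not given in the sources used here.

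Counts were fitted with edgeR 4.0.16 in R 4.3.3 (TMM, filterByExpr by group, robust quasi-likelihood F-test, 1 coefficient per group, 24 libraries, 18 residual degrees of freedom) and adjusted by Benjamini-Hochberg over 15618 genes with a threshold of 0.05. The SE is the fold change over the root of F, and 95% intervals are unadjusted. The biological coefficient of variation was 0.343. Depth of 8718351 to 11379830 counts puts 1 read near 0.1 CPM. The fit was tested on simulated counts.

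Ratios (count + 0.5) and levels relative to the reference genes (prior count 2) were compared by exact two-sided permutation over 70 arrangements of 4 against 4, or 4900 within antibodies, adjusted over 18 tests a family. Exon lengths came from GENCODE M21, and promoter sequences from RefSeq. The members, gene lists and tests were chosen with earlier results of these data known. From each list at most 4 genes per comparison with the smallest p and at least 1 CPM were named, and 5 genes per member by correlation; Dll4, the sort markers, other Sox genes and neighbour genes were named by rule. Genes that make up a count of 5 or fewer (such as Myct1, Trh, Apoa1, Vwf, P2ry12, Gata2 and Hhex), and Prox1, Dppa3, Pou5f1, Cer1 and the genes whose promoters held the motif, were named after their values were seen. So were the other endoderm genes named, the macrophage genes Adgre1 and C1qa and the endothelial genes Egfl7 and Esam. DESeq2 1.42.0, other scalings, no filter, removed globin genes, a globin covariate, blocks and left-out libraries were the alternatives. Library numbers were not used to pair samples in the main tests, since the labels do not say that libraries of 1 number share embryos and no comparison had every same-numbered pair of deviations correlated above 0.1. The 3 anti-Dll4 replicate 1 libraries do share their Xist and Ddx3y pattern, and library names carry 1 prefix for each antibody and number.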

Additional observations from a re-analysis of the deposited data

Results flagged for a closer look

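Sox18 in Kit+ CD45- cells under IgG had 1 library far from the others. Replicate 1 held 112 CPM (111.685 before rounding) and the other 3 held 50.9 to 56.7 CPM, so the gap took 0.904 of the group's range, above Dixon's 95% critical value for 4 libraries. Chance flags about 1 in 20 groups, and 18 gene and group pairs of the 3 members were looked at. The same library had the highest Sox7 and Sox17 levels of its group, the highest endothelial reference score (6.67 on the log2 scale, against 5.67 to 5.97) and the lowest globin share (16.9%). What these share with the Sox18 level was not tested.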

How the results depend on the processing

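Of 642 alternative values of the fitted differences, 623 kept their direction and their side of the threshold, and of 504 alternative values of the permutation tests 462 did. All calls of Kit+ against Kit- CD41+ CD45- cells held in every alternative run. For Kit+ CD45+ against Kit+ CD45- under anti-Dll4, Sox7 lost its call without a filter (1.45) and with DESeq2 (1.42), and Sox17 gained one with the replicate block by number (1.66) and with only the 2 groups fitted (1.497). Leaving out single libraries gave 1.26 to 1.73 for Sox7 and 1.30 to 1.89 for Sox17 there, and under IgG 0.80 to 1.49 for Sox7 and 0.71 to 1.23 for Sox18. With a replicate block, populations were compared within each numbered set by flipping the signs of the differences. Sox18 relative to the reference genes (0.34, Kit+ CD45+ against Kit+ CD45-) then passed with adjusted exact permutation p = 0.0301. That value was adjusted over the comparisons of populations only, and the main adjusted exact permutation p = 0.0777 over 18 tests. The change of call therefore cannot be laid to the block alone. Single libraries left out of the main test gave 0.27 to 0.43. The blocks changed no other call of a member. Correlations of same-numbered deviations ran from -0.147 to 0.197. Between populations of 1 antibody, 3 or 4 of 4 libraries correlated best with their own number in every pair of populations but Kit+ CD45- with Kit- CD41+ CD45- under IgG (0 of 4), a hint from the data that a number may mark a shared source. The causes were not tested.

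Antibody differences crossed 0 with single libraries left out, without any call. Sox7 in Kit- CD41+ CD45- cells ran from -1.94 to 0.12, and in Kit+ CD45+ cells Sox17 from -0.43 to 0.15 and Sox18 from -0.23 to 0.094; without the 3 anti-Dll4 replicate 1 libraries, an alternative chosen after seeing the data, the last pair were 0.070 and 0.097. Relative to the reference genes, Sox17 ran from -0.36 to 0.094 (Kit+ CD45-) and from -0.37 to 0.23 (Kit+ CD45+), Sox7 from -0.24 to 0.30 (Kit+ CD45-) and from -0.20 to 0.35 (Kit- CD41+ CD45-), and Sox18 from -0.23 to 0.077 (Kit+ CD45+). The log2 ratio of Sox17 to Sox18 ran from -0.38 to 0.24 (Kit+ CD45- against Kit- CD41+ CD45-), from -0.53 to 0.10 (Kit+ CD45+ against Kit- CD41+ CD45-) and from -0.34 to 0.0016 (between Kit+ populations), and for the antibody from -0.071 to 0.16 (Kit+ CD45-), from -1.24 to 0.0017 (Kit- CD41+ CD45-) and from -0.30 to 0.37 (Kit+ CD45+). That of Sox7 to Sox18 ran, in the same order, from -0.82 to 0.0037, -0.78 to 0.041 and -0.10 to 0.13, and for the antibody from -0.10 to 0.35 (Kit+ CD45-) and -0.36 to 0.031 (Kit+ CD45+). That of Sox17 to Sox7 ran from -0.11 to 0.36 (Kit+ CD45+ against Kit- CD41+ CD45-) and from -0.33 to 0.19 (antibody, Kit+ CD45-).

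Counts of genes called for the antibody moved with the tool. The edgeR test called 0 genes in Kit+ CD45- cells and DESeq2 82, with 0 to 23 when single libraries were left out (23 without Kit+ CD45- anti-Dll4 replicate 1) and 18 without the 3 anti-Dll4 replicate 1 libraries. The tools called 0 and 2 for Kit- CD41+ CD45-, 1 and 14 for Kit+ CD45+, 0 and 31 for the mean over populations and 4 and 25 for a difference between them. Other settings, single libraries left out included, gave 0 to 1 for the first 3 of these and 0 to 7 for the last. The 0 to 140 SoxF reads a library of Kit- CD41+ CD45- cells limit every value there.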
